A study of Mus musculus with 36 samples.

Results

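Gene expression was compared between tumor-free mammary glands of BALB/c and C57BL/6 mice. All 18 Matrigel glands of the series were used, 9 per strain, out of 36 samples in all. These glands had been injected through the duct with Matrigel, a gel of basement membrane proteins, without tumor cells, and were taken 1, 3 or 6 weeks later (w p.i., weeks post-inoculation), with 3 glands per strain and week. All dams were lactating females whose pups were weaned shortly before the injection, so the glands of both strains were sampled in the weeks after weaning. The other 18 samples of the series were 4T1 tumors grown in BALB/c glands and Py230 tumors grown in C57BL/6 glands, and the Matrigel glands served as their controls. Wild-type mice of both strains were bought for the study, which also used an albino NF-κB luciferase reporter line on the C57BL/6 background. The labels give only C57BL/6, so the line that gave the sequenced glands and the substrain are not known from the sources used here. Dams were mated as young adults, and their exact age at sampling is not stated. The labels do not tell whether the 3 glands of a group came from separate mice. The p-values therefore measure the spread between these samples, which may be partly technical. Strain coincided with tumor model arm in the study, and no batch is given in the labels, so that a batch that followed strain cannot be told apart from strain.

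BALB/c and C57BL/6 are inbred mouse strains that differ at many loci, among them the major histocompatibility complex (MHC), the immunoglobulin heavy chain locus and the natural killer (NK) receptor complex. MHC class I and class II molecules present peptides to T cells, and the 2 strains carry different haplotypes of them. The mammary gland consists of luminal and myoepithelial cells embedded in a fat pad, and after weaning the luminal cells stop making milk proteins and are largely removed while fat cells refill the gland.

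The deposited expression values were standardized scores: in each library the scores of the 21650 genes had a mean of 0 and a standard deviation (SD) of 1, so that 0 is the average gene of a library. Across 13567 genes whose mean normalized count, as the authors' tables give it, reached 100, 1 score unit corresponded to 2.78 log2 units of that count, which serves only as a guide to size. The sequencing depth cannot be read from scores. All differences are given as BALB/c minus C57BL/6 in score units, estimated with limma (a linear model with moderated errors) over weeks 1, 3 and 6 unless a week is named. A gene was called when its p-value, adjusted over all 21650 genes by the Benjamini-Hochberg method, was below 0.05. The glands carried the markers of their tissue: the mean score of 25 white adipocyte genes was between 1.69 and 2.17, that of 25 luminal epithelial genes between 0.82 and 1.21 and that of 16 myoepithelial genes between 0.85 and 1.29 over all 18 glands. Other tissue was taken along to a varying extent in both strains. The mean of 24 skeletal muscle genes ranged from -0.44 to 2.06 in BALB/c and from -0.59 to 2.09 in C57BL/6 glands. Glands with a mean of the 19 keratinocyte and hair genes above -1 are called hair-rich here, a limit set after seeing the data. There were 4 of them. In BALB/c these were gland 3 of week 1 (-0.94) and gland 2 of week 6 (0.68). In C57BL/6 they were gland 3 of week 3 (-0.50) and gland 3 of week 6 (-0.16). The next gland, gland 3 of BALB/c week 6, was at -1.18. A pair of BALB/c glands, gland 2 of week 1 (0.61) and gland 2 of week 3 (0.41), had a mean of the 18 brown and beige adipocyte genes above 0. This limit, also set after seeing the data, defines brown-fat-rich glands here. None of the 24 muscle genes was called between the strains by limma (0 also at an unadjusted p below 0.05), at a median difference of 0.07.

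Over all weeks 2675 genes (12.4% of those tested) differed between the strains, of which 1285 were higher and 1390 lower in BALB/c glands. At week 1, 773 genes (3.57%) were called, 380 higher (1.76%) and 393 lower (1.82%) in BALB/c. At week 3 there were 865 (4.00%), 430 higher (1.99%) and 435 lower (2.01%), and at week 6 there were 953 (4.40%), 374 higher (1.73%) and 579 lower (2.67%). In total 389 genes (1.80%) were called in the same direction at every week, 185 higher (0.855%) and 204 lower (0.942%) in BALB/c. Of these 389 genes, 362 had 9 BALB/c values that did not overlap the 9 C57BL/6 values, a separation that was seen for 600 genes (2.77%) in the whole table, 277 higher (1.28%) and 323 lower (1.49%) in BALB/c. The differences of the 389 genes ranged in size from 0.09 to 2.29 score units with a median of 0.40, and 43 of them were at least 1 unit. Only 2 genes of the table were called at more than 1 week in opposite directions. The strain by week interaction, which tests whether a strain difference changed with the week, gave 0 genes at an adjusted p below 0.05 by limma and 1290 genes (5.96%) at an unadjusted p below 0.05. The call at every week is thus a description of genes that passed in each of 3 small comparisons, and genes that failed at a week are not shown to differ less at that week.

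**Figure D1:**
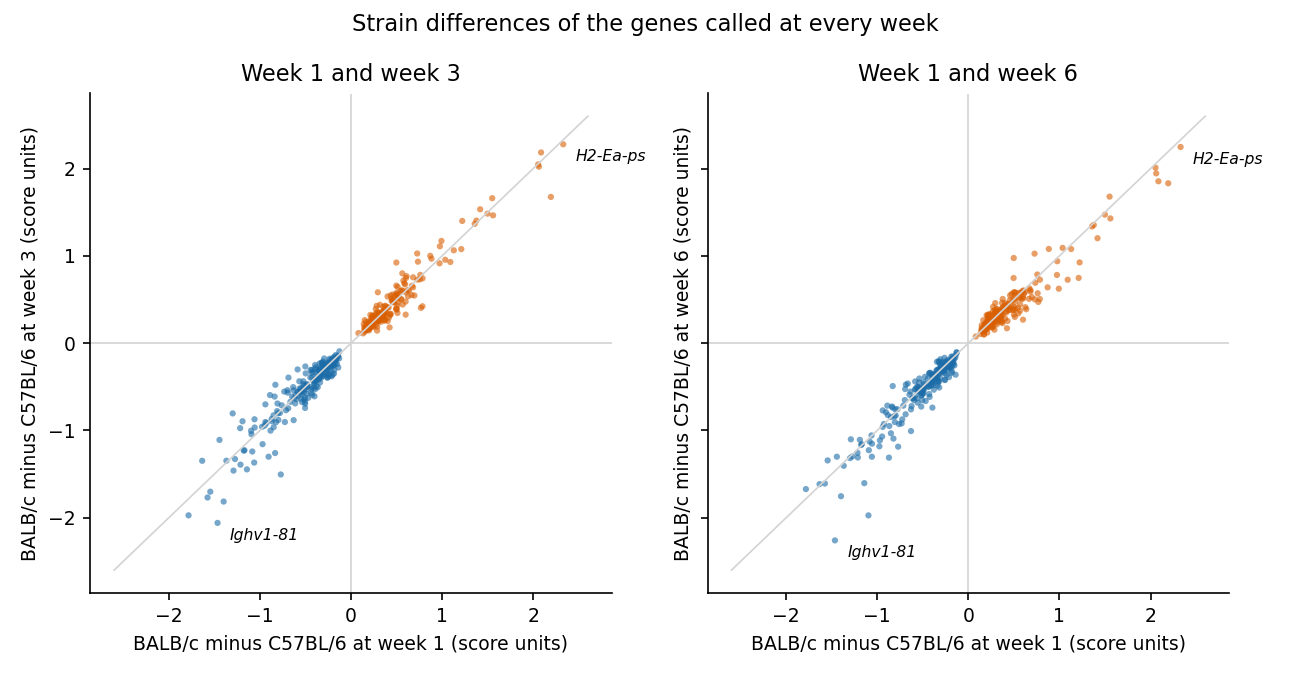
Strain difference (BALB/c minus C57BL/6, score units) of the 389 genes called at every week, at week 1 on the horizontal axis and at week 3 (left) or week 6 (right) on the vertical axis; orange, higher in BALB/c, blue, lower in BALB/c, grey diagonal, equal differences. The call itself required 1 direction at all weeks, and the points lie along the diagonal, with H2-Ea-ps at 2.33, 2.28 and 2.25 and Ighv1-81 at -1.46, -2.06 and -2.26 at weeks 1, 3 and 6.

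The gene that was most above C57BL/6 in the BALB/c glands was H2-Ea-ps (chromosome 17, 34341959 to 34344645 on GRCm38, minus strand), the gene of the MHC class II E alpha chain. C57BL/6 mice are known to lack this chain, and the mouse reference, which is built from C57BL/6J, lists the gene as a pseudogene. Its score lay between 1.15 and 1.80 (median 1.52) in BALB/c glands and between -0.97 and -0.67 (median -0.85) in C57BL/6 glands. The groups were far apart, and the difference was 2.29 ± 0.08 (standard error, n = 9 glands per strain, adjusted p = 1.33e-12 by limma). It was also the only class II gene that was higher in BALB/c and called, out of 12 measured. The other classical class II genes went the opposite way with smaller differences. H2-Ab1, the A beta chain, had a mean score of 1.71 in BALB/c and 2.03 in C57BL/6 glands, H2-Eb1, the E beta chain, 1.72 and 2.05, and H2-Aa, the A alpha chain, 1.86 and 2.14. The invariant chain Cd74 differed by -0.29, the peptide loading gene H2-DMb1 by -0.34 and Ciita, the transactivator of class II genes, by -0.34. In all, 9 of 12 class II genes (75.0%, against 6.42% of all genes lower in BALB/c) were called lower in BALB/c over all weeks, and the median of the list was -0.28 against 0.01 for all genes. Each of these 9 overlapped between the strains. None of these 9 was called at every week, and their differences were smallest at week 3, where the list median was -0.10 against -0.36 at week 1 and -0.39 at week 6, although the interaction was not called for any of them (lowest adjusted p in the list 0.66). In whole tissue, fewer class II positive cells and less class II RNA per cell cannot be told apart. Reads of both strains were mapped to the C57BL/6 reference, although their class II haplotypes differ. The part of this mapping in the class II differences was not tested. The B cell list, whose cells also express class II, was lower in BALB/c as well (median -0.26), that of dendritic cells was at -0.03 and that of macrophages and monocytes at -0.07, and their part in the class II values was not tested. Without the pair of BALB/c glands rich in brown fat genes 7 of the 12 were lower, and without the 4 hair-rich glands 6. Leaving out 1 gland gave 6 to 9 lower, with 6 without gland 1 of C57BL/6 week 1.

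The sequences upstream of the start of H2-Aa and H2-Eb1 are shown because these class II genes moved together and against H2-Ea-ps. They are the 250 bases before the RefSeq start on GRCm38.p6, the reference of C57BL/6J, and lie at chr17:34287824-34288073 (minus strand) and chr17:34305617-34305866 (plus strand). Capitals mark the Y box CTGATTGG, a conserved element of class II promoters, which was searched for on both strands and found on the gene's strand in each. It starts 51 bases before the start of H2-Aa and 62 bases before that of H2-Eb1, and 3.83% of the 32851 mouse promoters of this length hold it. No sequence of BALB/c was used.
H2-Aa: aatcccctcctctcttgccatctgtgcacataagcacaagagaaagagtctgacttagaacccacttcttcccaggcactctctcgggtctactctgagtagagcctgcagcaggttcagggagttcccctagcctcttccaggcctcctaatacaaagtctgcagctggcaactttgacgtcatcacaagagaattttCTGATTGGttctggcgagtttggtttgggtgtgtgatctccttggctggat
H2-Eb1: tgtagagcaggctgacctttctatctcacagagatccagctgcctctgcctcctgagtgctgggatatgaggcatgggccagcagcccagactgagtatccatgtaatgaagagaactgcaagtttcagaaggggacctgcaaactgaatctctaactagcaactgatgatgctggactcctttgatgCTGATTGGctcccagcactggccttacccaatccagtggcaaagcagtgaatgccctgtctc

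MHC class I genes moved in both directions. Of 25 class I and peptide loading genes in the table, 8 were called higher (5.94% of all genes) and 7 lower (6.42% of all genes) in BALB/c, with a median of -0.05. H2-Q2, a non-classical class I gene, was between 0.69 and 0.90 in BALB/c glands and between -0.34 and 0.21 in C57BL/6 glands, a difference of 0.92 ± 0.05 (adjusted p = 7.12e-10 by limma). Its neighbour H2-Q1 differed by 0.62, H2-Bl by 0.68 and H2-T3 by 0.38, all without overlap of the strains. H2-M2 went the other way, at a mean of -0.85 in BALB/c and 0.02 in C57BL/6 glands. The classical gene H2-K1 differed by -0.15, the light chain B2m by -0.21, the peptide transporter Tap1 by -0.21 and the class I transactivator Nlrc5 by -0.35. The last of these did not overlap between the strains. The Q and T region genes did not all go 1 way: H2-Q7 was lower in BALB/c at -0.30 without overlap, and H2-T22 was at -0.086, H2-Q10 at 0.021 and H2-T23 at 0.090. Class I genes are near copies of each other and the reads of both strains were mapped to the C57BL/6 reference, so the share of each copy is uncertain, and the part of this in the differences was not tested.

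**Figure D2:**
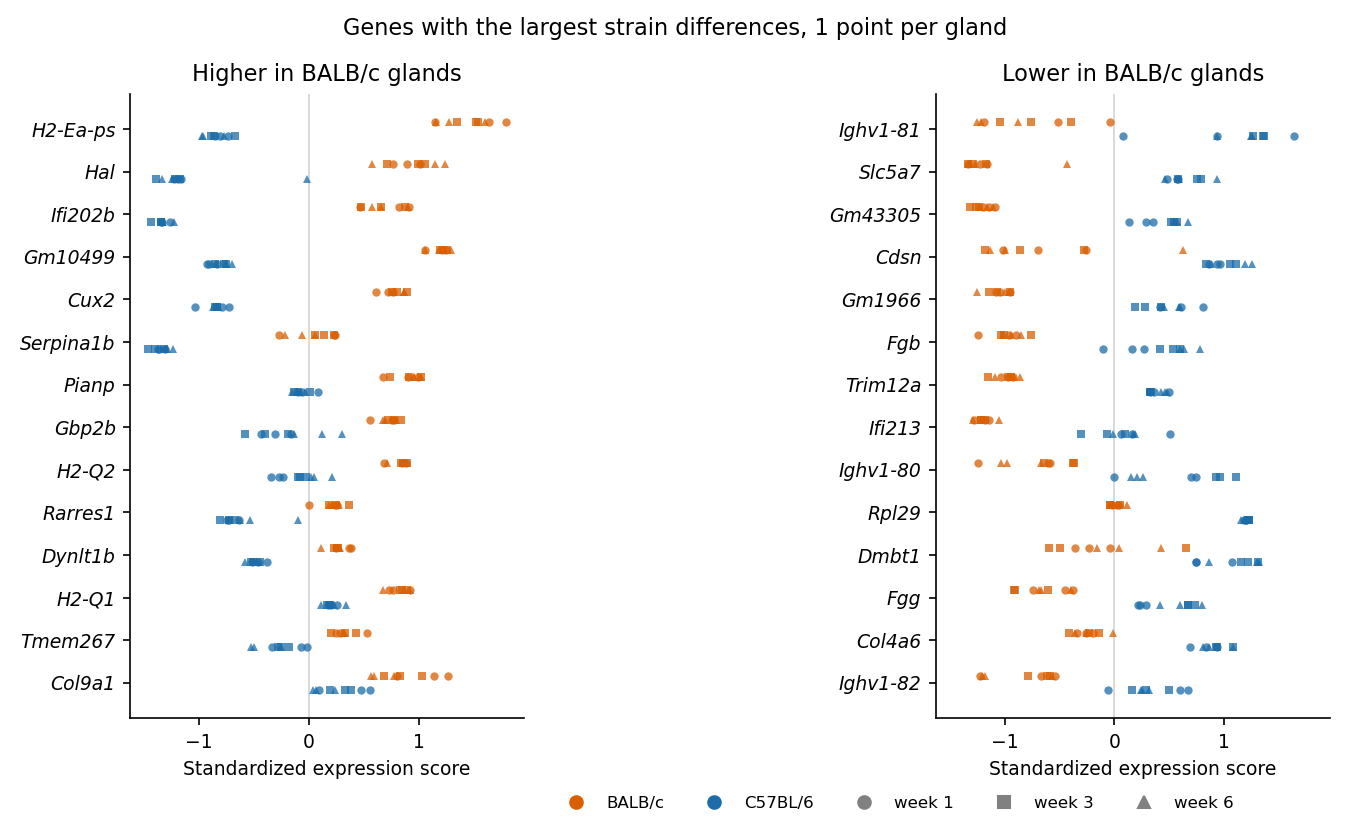
Standardized expression scores of the genes with the largest strain differences, 1 point per gland (orange, BALB/c, blue, C57BL/6, symbols by week), for 12 named genes and 2 predicted models or pseudogenes in each direction. By the rule that chose them the 9 BALB/c glands do not overlap the 9 C57BL/6 glands for any of them; a C57BL/6 gland at -0.02 for Hal and a BALB/c gland at 0.62 for Cdsn lie away from the rest of their strain.

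Among the named genes higher in BALB/c the largest differences were those of Hal and Ifi202b. Hal (chromosome 10) encodes histidine ammonia lyase, the enzyme that starts the breakdown of histidine. Its scores were 0.58 to 1.24 in BALB/c glands and -1.39 to -0.02 in C57BL/6 glands, with medians of 0.99 and -1.22. The strains did not overlap, and 8 of the 9 C57BL/6 glands were at or below -1.17. The difference was 2.04 ± 0.15 (adjusted p = 3.65e-08 by limma). Amdhd1, which lies beside Hal and encodes a later enzyme of the same pathway, was picked after its values were seen, and it differed by 0.89 ± 0.05 and was called at every week too. Ifi202b (chromosome 1), an interferon-inducible gene of the p200 family, was between 0.47 and 0.92 in BALB/c glands and between -1.44 and -1.22 in C57BL/6 glands, a difference of 2.04 ± 0.06. Cux2, a homeodomain transcription factor, differed by 1.63 (BALB/c lowest 0.62, C57BL/6 highest -0.73). Serpina1b, an alpha-1 antitrypsin gene, differed by 1.38, with its relatives Serpina1c and Serpina1d at 0.65 and 0.51. Pianp (0.98), Rarres1 (0.84), Tmem267 (0.60), the dynein light chain gene Dynlt1b (0.75), the guanylate binding protein gene Gbp2b (0.93) and the collagen IX gene Col9a1 (0.59) completed the list. Among predicted models Gm10499, in the class I region, was 1.06 to 1.29 in BALB/c and -0.93 to -0.70 in C57BL/6 glands.

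Among the named genes lower in BALB/c, 3 were variable segments of the immunoglobulin heavy chain and 2 were fibrinogen chains. Ighv1-81 was between -1.25 and -0.04 in BALB/c glands (median -0.88) and between 0.08 and 1.63 in C57BL/6 glands (median 1.25). The closest glands of the strains were near each other, and the difference was -1.93 ± 0.20 (adjusted p = 3.57e-06 by limma). BALB/c reads of these segments were mapped to the C57BL/6 reference, and the part of this in the difference was not tested. Slc5a7, the choline transporter of cholinergic nerve endings, lay between -1.34 and -0.43 in BALB/c and between 0.46 and 0.93 in C57BL/6 glands, a difference of -1.81 ± 0.10. The 15 Schwann cell and nerve genes gave 0 called genes by limma (1 at an unadjusted p below 0.05) and a median of -0.01. Cdsn, which encodes corneodesmosin of the cornified skin layer, differed by -1.65 ± 0.20. Its BALB/c values spread from -1.18 to 0.62, the highest in the BALB/c gland richest in keratinocyte and hair genes. The difference was -1.79 without the 4 hair-rich glands. The basement membrane collagen gene Col4a6 differed by -1.15, and Dmbt1, which encodes a mucosal scavenger receptor glycoprotein, by -1.16. Trim12a differed by -1.37 and Ifi213 by -1.28. The predicted models Gm43305 and Gm1966 differed by -1.66 and -1.53. None of these largest differences lost its call or changed sign in any of the alternatives computed. The genes were chosen for passing in these same glands, so this is not an independent check.

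The fibrinogen genes Fgb and Fgg, which lie within 1 cluster on chromosome 3 and encode chains of the blood clotting protein made mainly by liver, moved together. Fgb was -1.24 to -0.76 in BALB/c and -0.10 to 0.78 in C57BL/6 glands, with a difference of -1.40 ± 0.07 (adjusted p = 6.96e-10 by limma). Fgg was -0.92 to -0.38 in BALB/c and 0.22 to 0.80 in C57BL/6 glands, with a difference of -1.15 ± 0.10. The gap of Fgb was -1.14, -1.45 and -1.60 at weeks 1, 3 and 6, and that of Fgg -0.77, -1.50 and -1.19. Upstream sequences of this pair are shown since the genes lie in the same cluster and had the same direction. They are the 250 bases before the RefSeq start on GRCm38.p6, at chr3:83049864-83050113 (minus strand) for Fgb and chr3:83007474-83007723 (plus strand) for Fgg. Capitals mark GTTAAT or its reverse complement, the half-site of the liver factor HNF1 that was searched for on both strands. It was found in Fgb only, and 6.43% of the 32851 promoters hold it.
Fgb: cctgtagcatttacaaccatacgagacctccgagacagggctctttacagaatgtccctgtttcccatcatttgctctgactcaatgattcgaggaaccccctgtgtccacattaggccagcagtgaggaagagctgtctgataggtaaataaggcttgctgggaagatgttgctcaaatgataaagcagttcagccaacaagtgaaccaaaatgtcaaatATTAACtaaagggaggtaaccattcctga
Fgg: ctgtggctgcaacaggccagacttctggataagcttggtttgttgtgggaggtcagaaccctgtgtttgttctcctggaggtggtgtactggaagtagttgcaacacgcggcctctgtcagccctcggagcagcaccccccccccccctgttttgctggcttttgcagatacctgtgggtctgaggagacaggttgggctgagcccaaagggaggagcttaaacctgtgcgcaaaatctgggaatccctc

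Milk genes were higher in the BALB/c glands. Of 18 genes of milk proteins and milk secretion, 13 (72.2%, against 5.94% of all genes) were called higher and 0 lower, with a median difference of 0.34. The mean score of the list was 1.09 to 1.59 in BALB/c and 0.70 to 0.98 in C57BL/6 glands at week 1, 0.88 to 1.08 and 0.54 to 0.69 at week 3, and 0.79 to 0.86 and 0.51 to 0.67 at week 6. The strains did not overlap within any week, but the BALB/c glands of week 6 were at the level of the C57BL/6 glands of week 1. Lao1, an amino acid oxidase of milk, had the largest difference. It was between -1.11 and 0.75 in BALB/c (median -0.51) and between -1.53 and -0.68 in C57BL/6 glands (median -1.47), and differed by 1.01 ± 0.10 (adjusted p = 1.97e-06 by limma). Cel, the bile salt stimulated lipase of milk, differed by 0.70 ± 0.08, and these were the only milk genes called at every week. The alpha-lactalbumin gene Lalba differed by 0.57, osteopontin (Spp1) by 0.66, lactoferrin (Ltf) by 0.42 and the caseins Csn1s2a, Csn2 and Csn1s1 by 0.73, 0.50 and 0.36. The casein gene Csn3 (0.17), Xdh (0.07), Muc15 (0.13), Lcn2 (0.01) and Csn1s2b (-0.05) were not called. The gap of Csn1s2a was 1.14, 0.65 and 0.41 at weeks 1, 3 and 6, and the median of the list 0.42, 0.32 and 0.19. No milk gene was called for interaction with week (lowest adjusted p 0.75, with 3 of 18 genes at an unadjusted p below 0.05), so a narrowing with time was not shown.

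**Figure D3:**
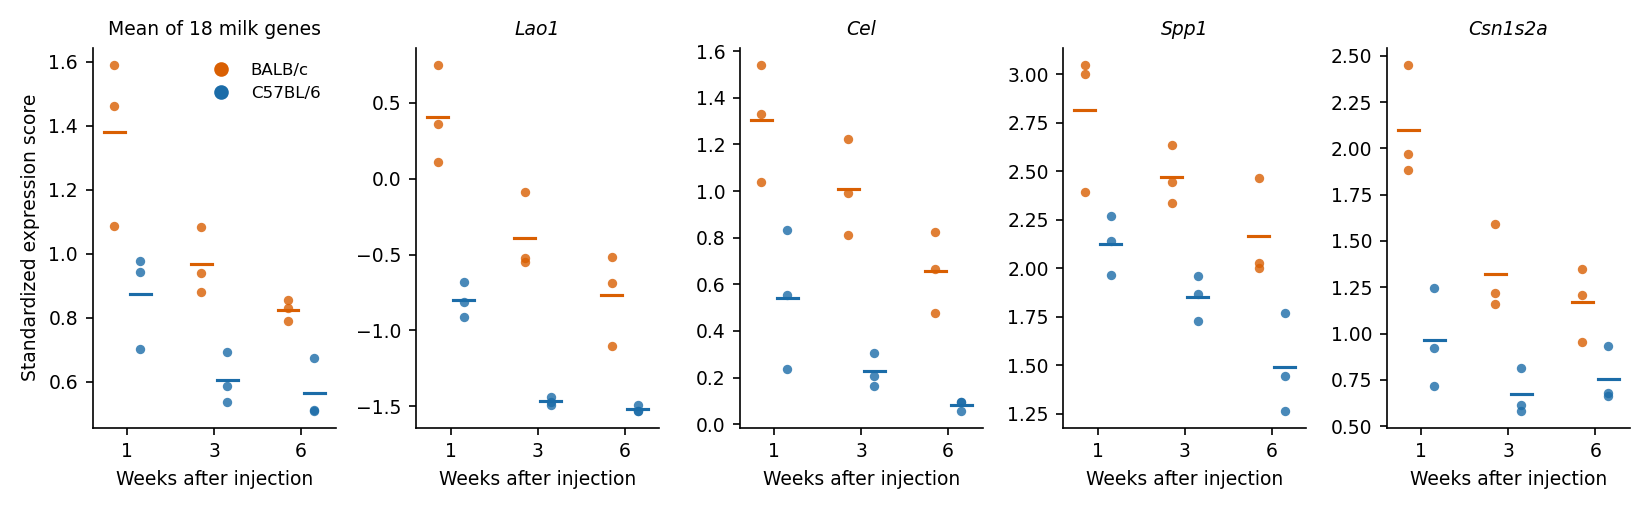
Mean score of the 18 milk genes and scores of Lao1, Cel, Spp1 and Csn1s2a by week after injection (1, 3 and 6), 1 point per gland with the mean of 3 glands as a bar (orange, BALB/c, blue, C57BL/6; each panel has its own axis). In every panel the mean at week 6 is below that at week 1 in both strains, and the BALB/c mean is above the C57BL/6 mean at each week.

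Markers of the milk producing cells themselves were called at about the share of all genes (12.4%). Of 25 luminal genes 0 were called higher and 3 lower in BALB/c (6.42% of all genes), with a median of -0.02: Ly6d at -0.80, Foxa1 at -0.26 and Cldn4 at -0.22, the last 2 at adjusted p = 0.045 and 0.047 by limma and lost in 15 and 18 of 27 alternatives. Lgr5, a Wnt pathway receptor, was the 1 myoepithelial gene of 16 that was called, at -0.77. Of 30 genes of involution, 2 were higher and 1 was lower, with Lbp, the lipopolysaccharide binding protein, at 0.50 ± 0.06 and no overlap of the strains. In white adipocytes 3 of 25 genes were lower and 0 higher. Agt, the angiotensinogen gene, was -0.10 to 0.24 in BALB/c and 0.36 to 0.79 in C57BL/6 glands (-0.54 ± 0.06), Nnat differed by -0.61 and leptin (Lep) by -0.34. Called brown and beige adipocyte genes were split, with 2 of 18 higher (Elovl3 and Dio2, at 0.68 and 0.33) and 2 lower (Lhx8 and Prdm16, at -0.34 and -0.22). The median of this list was 0.21. Elovl3 lost its call in 13 alternatives, Dio2 in 4 and Prdm16 in 2. Without the pair of brown-fat-rich BALB/c glands Elovl3 was at 0.45 and Dio2 at 0.24. Matrix genes included Thbs1 at -0.41 and Tnc at 0.31, both without overlap, and among 23 endothelial genes only Plvap (0.23) was called.

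Interferon-inducible gene clusters were lower in BALB/c on balance of counts. Of 76 genes 24 (31.6%, against 6.42% of all genes) were called lower and 7 (9.21%, against 5.94%) higher, at a median of -0.13. Of the 76 genes 12 were called at every week (against 1.80% of all genes), 8 lower (against 0.942%) and 4 higher (against 0.855%). Trim12a, of a tripartite motif family that includes antiviral restriction factors, was -1.15 to -0.86 in BALB/c and 0.33 to 0.50 in C57BL/6 glands (-1.37 ± 0.04, adjusted p = 4.15e-14 by limma). Its neighbours Trim5, Trim30d and Trim34a differed by -0.64, -0.81 and -0.36, and Trim34b by 0.36. In the p200 cluster Ifi206, Ifi209 and Ifi208 differed by -1.06, -0.73 and -0.50, beside Ifi213 at -1.28 and Ifi202b at 2.04. Ifi44l was -0.39 to 0.28 in BALB/c and -1.57 to -1.38 in C57BL/6 glands, a difference of 1.48 ± 0.08. The other called members had smaller differences, such as Iigp1 at -0.43, Ifit3 at -0.44 and Ifit1 at -0.27. Without the 4 hair-rich glands 15 were lower and 6 higher, and without the pair rich in brown fat 18 and 6. The Trim and p200 genes lie beside relatives of their own family, and reads of both strains were mapped to the C57BL/6 reference. How much of these differences came from the mapping was not tested.

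**Figure D4:**
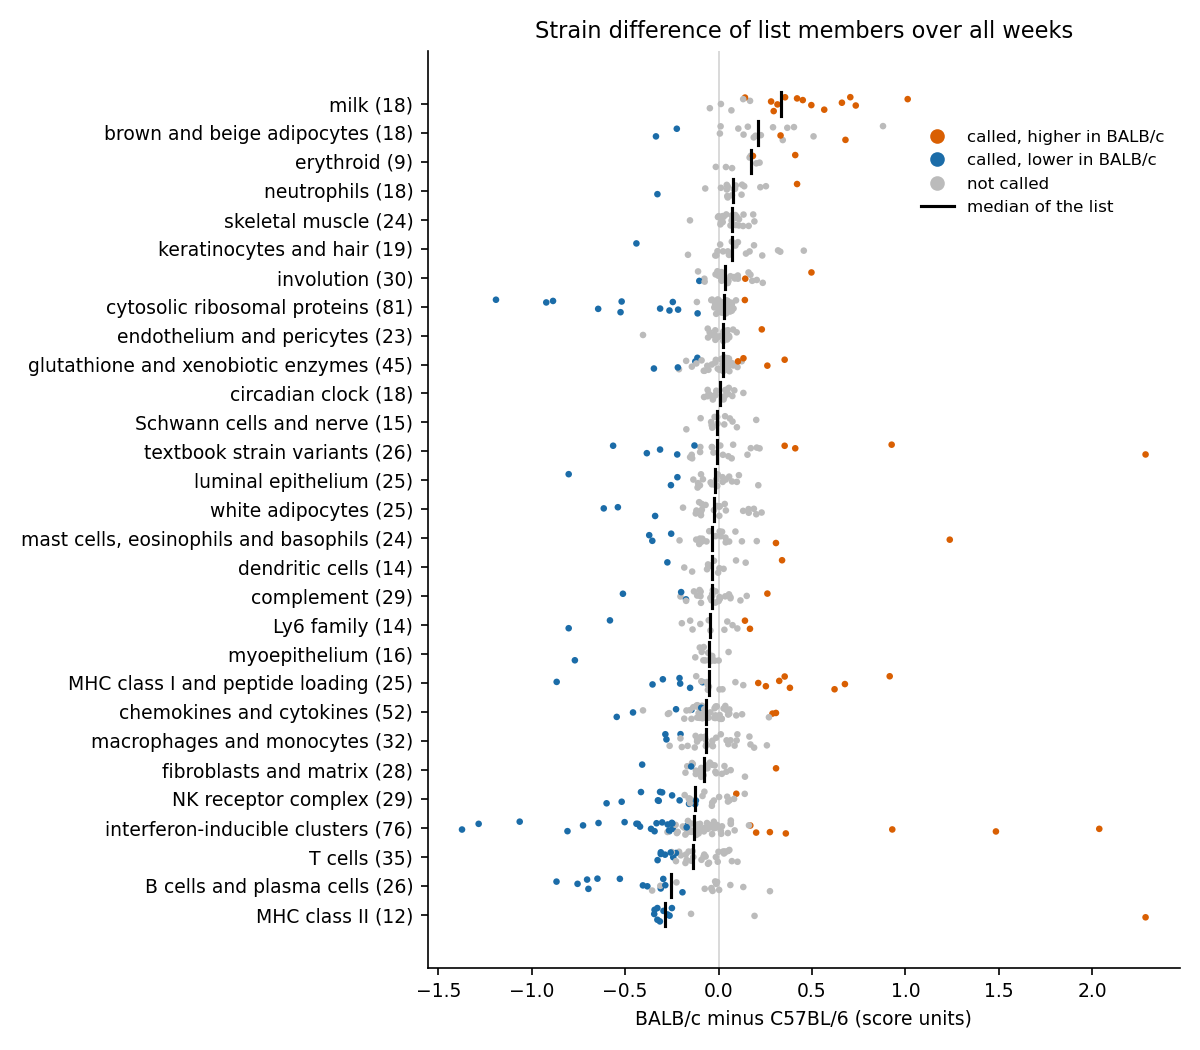
Strain difference (BALB/c minus C57BL/6, score units) of every measured member of the 29 gene lists, ordered by the list median (black bar), with the number of measured members in parentheses; orange, called higher, blue, called lower, grey, not called. Milk genes stand at the top with a median of 0.34 and MHC class II genes at the bottom with -0.28, while skeletal muscle, circadian clock and Schwann cell lists hold 0 called genes by limma (0, 3 and 1 at an unadjusted p below 0.05).

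Some lymphocyte genes were lower in BALB/c. Of 26 B cell and plasma cell genes 12 were called lower (46.2%, against 6.42% of all genes) and 0 higher (against 5.94%), with a median of -0.26. The immunoglobulin gene Ighg2c, whose IgG2c class is the one that C57BL/6 mice make in place of IgG2a, was -1.31 to -0.60 in BALB/c and -0.46 to 0.19 in C57BL/6 glands (-0.87 ± 0.11). Ighg2b differed by -0.75, Igha by -0.70, Igkc by -0.70 and the joining chain Jchain by -0.65, while the B cell receptor gene Cd79b differed by -0.38. Of 195 immunoglobulin V genes 59 were called lower and 5 higher, with a median of -0.34, where the same shares of all genes (6.42% and 5.94%) apply. The strains differ at the heavy chain locus, and the reads of both were mapped to the C57BL/6 reference. The part of this in the immunoglobulin values was not tested, so they cannot be read as B cell content alone. Of 35 T cell genes 7 were lower (6.42% of all genes) and 0 higher, with Cd2 at -0.31 and no overlap between the strains, Cd28 at -0.31 and Cd8a at -0.33. These counts moved with the filter and with single glands. When only genes with a mean score of at least 0 in some strain and week were tested, 8 T cell genes remained and 0 were called by limma (3 at an unadjusted p below 0.05, list median 0.0098), and 6 of the 8 B cell and plasma cell genes that remained were called lower. Leaving out 1 gland gave 4 to 13 B cell and plasma cell genes and 3 to 15 T cell genes. The B cell count fell to 4 without gland 1 of C57BL/6 week 1 or gland 3 of C57BL/6 week 6, and the T cell count rose to 15 without gland 2 of C57BL/6 week 1. The mean of the B cell and plasma cell list ranged from -0.88 to -0.22 in BALB/c and from -0.44 to -0.12 in C57BL/6 glands, so the strains overlapped.

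Called NK receptor genes were nearly all lower in BALB/c. Of 29 genes of the complex 12 (41.4%, against 6.42% of all genes) were lower and 1 higher, with a median of -0.13. Only 2 of the 29 passed the filter on low scores, of which 1 was called. Klra8, the activating receptor Ly49H that BALB/c mice are known to lack, was -1.73 to -1.60 in BALB/c and -1.34 to -0.64 in C57BL/6 glands (-0.60 ± 0.06, adjusted p = 1.73e-06 by limma). Klra4 was at -0.52 and Klra9 at -0.32, also without overlap, and Klrb1c, the NK1.1 antigen gene, at -0.31. All of these scores lie well under the average gene, and this family too consists of near copies. Among other leukocyte genes Rnase2a, an eosinophil ribonuclease gene, stood out at 1.24 ± 0.14 (BALB/c -0.66 to 0.41, C57BL/6 -1.52 to -1.20), whereas the eosinophil genes Prg2 and Ear2 differed by -0.37 and -0.35. The skin chemokine gene Ccl27a differed by -0.55 and Ccl28 by 0.29, and the complement receptor gene C5ar2 by -0.51, each at every week and without overlap. Against 5.94% of all genes called higher and 6.42% called lower, the other lists held 0 higher and 3 lower of 32 macrophage and monocyte genes, 1 and 1 of 18 neutrophil genes, 1 and 1 of 14 dendritic cell genes, 2 and 3 of 24 mast cell, eosinophil and basophil genes, 2 and 0 of 9 erythroid genes, 0 and 1 of 19 keratinocyte and hair genes, 1 and 3 of 29 complement genes and 2 and 5 of 52 chemokine and cytokine genes. In the Ly6 family 2 of 14 genes were higher and 2 lower, with Ly6e at -0.58 ± 0.05 and no overlap of the strains.

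A few ribosomal protein genes differed by amounts that varied little from gland to gland. Of 81 genes of the cytosolic ribosome 11 were lower (13.6%, against 6.42% of all genes) and 1 was higher (against 5.94%) in BALB/c. Of these, 10 were lower at every week (0.942% of all genes) and 10 did not overlap between the strains (2.77% of all genes), while the median of the list was 0.03. Rpl29, of the large subunit, was -0.04 to 0.11 in BALB/c and 1.16 to 1.23 in C57BL/6 glands, a difference of -1.19 ± 0.02 (adjusted p = 3.57e-16 by limma). Rpl21 differed by -0.92, Rps2 by -0.89, Rps18 by -0.64 and Rpl3 and Rpl26 by -0.52 each. The other 69 genes of the ribosome were not called. These genes have many processed copies in the genome. Of 162 ribosomal protein pseudogenes named as such in the table, 7 were called at every week, and all 7 were copies of Rpl29, Rpl21, Rps2 or Rps18. The share called at every week was 1.80% of all genes and 2.05% of 2776 processed pseudogenes. Rps18-ps1 (-0.79), Rpl21-ps11 (-0.73), Rpl21-ps8 (-0.66), Rps2-ps5 (-0.38) and Rpl29-ps2 (-0.36) went with their genes, and Rps2-ps10 (0.41) and Rps2-ps13 (0.40) against them. How reads of BALB/c were shared out among such copies on a C57BL/6 reference was not tested.

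Loci known from textbooks to vary between inbred strains were looked at as a check of the labels. Of the 26 such genes that were measured, 4 were higher (15.4%, against 5.94% of all genes) and 5 lower (19.2%, against 6.42%) in BALB/c. Beside H2-Ea-ps, Mmrn1 was -1.80 to -0.25 in BALB/c and -1.89 to -1.82 in C57BL/6 glands (0.93 ± 0.16). Glo1, the glyoxalase gene, differed by 0.35 ± 0.03, the inflammasome genes Nlrp1a and Nlrp1c-ps by -0.38 and -0.56, Naip6 by -0.22 and the aryl hydrocarbon receptor gene Ahr by -0.13. Nnt, of which C57BL/6J carries a deletion, was -0.73 to -0.49 in BALB/c and -0.68 to -0.57 in C57BL/6 glands and was not called (0.02, adjusted p = 0.72 by limma). Ly6a, the Sca-1 antigen, differed by -0.10 and was not called, and neither was the albino gene Tyr (0.08), whose known BALB/c change alters the protein. Tpsab1, Hbb-bs, Hbb-bt, Prkdc, Cdkn2a, Ide, Slc11a1, Nlrp1b, Naip1, Naip2, Naip5, Sirpa, Ceacam1 and Ceacam2 were not called either, with differences between -0.15 and 0.22. In the glutathione and xenobiotic list 4 of 45 genes were higher (8.89%, against 5.94% of all genes) and 4 lower (8.89%, against 6.42%), among them Gsta4 at 0.26.

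Genes called at every week often had another such gene nearby, which is given here as a description without a test. Of the 389 genes, 149 (38.3%) had another within 200 kb, compared with 9.73% of all other tested genes. By chromosome the share was highest on chromosome 17, with 51 of 1059 genes (4.82%), among the autosomes and the X chromosome, followed by chromosome 12 with 3.16% and chromosome 4 with 2.67%, and lowest on chromosome 16 with 0.45%. There were 13 runs of at least 4 such genes, each no more than 200 kb from the one before, with 70 genes in all. The longest, on chromosome 4 (41769467 to 42587038 on GRCm38), held 11 of the 20 tested genes of its span, all lower in BALB/c, among them Ccl27a and Fam205a2. The run in the class I T region (chromosome 17, 36055816 to 36206339) held 9 of 17, all higher, with Gm11127 at 1.38, Gm8909 at 1.01, H2-Bl and H2-T3. On chromosome 12 a run of Ighv1 segments, 5 of them lower, was followed outward by Zfp386 at 0.17, and another held Serpina1b, Serpina1c, Serpina1d and Serpina1e, all higher, with B430119L08Rik lower at -1.02. The Dynlt1a, Dynlt1b and Dynlt1c genes formed a run of 5 on chromosome 17 that was higher throughout, while the Trim run on chromosome 7 (4 lower, 1 higher) and the Ifi run on chromosome 1 (4 lower) are those described above. Many of these spans hold copied genes. Unprocessed pseudogenes (15 of 156, 9.62%) and transcribed unprocessed pseudogenes (10 of 73, 13.7%) were called at every week, beside 225 of 15855 protein coding genes (1.42%).

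**Figure D5:**
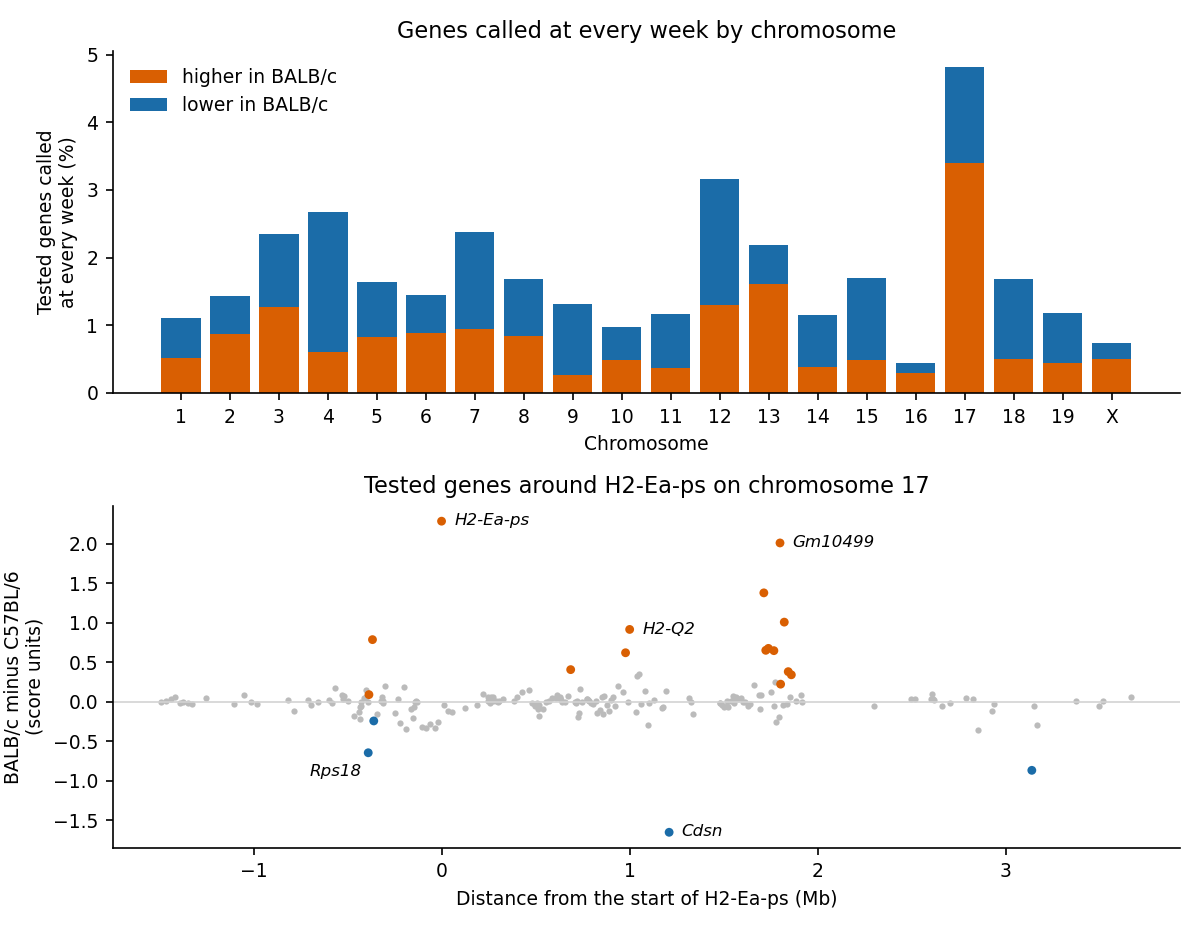
Top, share of tested genes called at every week on each autosome and the X chromosome, in percent, stacked by direction. Bottom, strain difference in score units of the tested genes around H2-Ea-ps by distance in Mb, with genes called at every week in colour (orange, higher, blue, lower in BALB/c); chromosome 17 stands highest at 4.82%, and the genes near Gm10499 in the class I T region that were called at every week lie above 0, among others in grey on both sides of 0.

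The 18 tumors of the series gave another set of libraries from the same strains, although there strain coincided with tumor cell line. Of the 389 genes, 373 (95.9%) had the same sign of difference between 4T1 and Py230 tumor means as between the glands, compared with 57.1% of all genes, and for 169 genes the 9 tumors per model did not overlap (2.76% of all genes), all in the direction of the glands. H2-Ea-ps had a mean score of 2.01 in 4T1 and -0.86 in Py230 tumors, Hal 1.11 and -1.18, and Rpl29 0.16 and 1.24. Col9a1 went the other way, at 0.24 and 1.15.

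The genes with the smallest p of the strain by week interaction were mostly immunoglobulin segments. Igkv12-89 differed by -0.42, -0.03 and -1.94 at weeks 1, 3 and 6, Ighv5-12 by 0.76, -0.26 and -1.94, Ighv3-5 by 0.08, -0.07 and -1.98, Ighv5-16 by -0.54, -0.52 and -1.78, and Igkv1-133 by 0.23, -1.89 and -0.07. Zc3h6, Il9r and Hs6st2 had differences of at most 0.29 in size at any week. None passed the adjusted threshold.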

How the data were processed

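RNA of 36 samples was sequenced by the authors from stranded libraries in read pairs, mapped with STAR to mm10, counted per gene and normalized with DESeq2; versions and the gene annotation are not given in the sources used here. The deposited table holds a standardized score per gene and library, not counts, a step the authors do not describe. The mean normalized count deposited in the authors' tables served only to set the scale, and their fold changes and p-values were not used.

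All 36 columns of the table were matched to samples by title, and the 18 Matrigel glands were fitted with limma 3.58.1 in R 4.3.3 (trend and robust errors), with strain and week, or with 1 mean per strain and week. Since the files hold scores, no count test was run. All 21650 genes matched GENCODE vM21 on GRCm38. On simulated data 98 of 100 genes changed by 0.5 and 99 of 100 changed by 1 score unit were recovered over all weeks, with 5 unchanged genes called, and 77 and 95 of 100 at every week. The simulation used independent normal noise per gene and gland, with the residual SDs of these glands and no week effect. It held no variation shared by the genes of a gland, such as muscle content. It therefore checks the code and cannot give the rate of false calls in the real glands. No sample was a copy of another (highest correlation 0.993). Same-numbered glands of the strains correlated after group means were removed at week 1 (0.41 to 0.79) but not at weeks 3 and 6 (-0.43 to -0.02), and the labels do not pair them, so numbers were not used as pairs.

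Named were the 12 largest differences per direction among genes called over all weeks and at every week, without overlap and with a mean score of at least 0 in the higher strain, 2 predicted models per direction under the same limits, the 4 members of each list with the smallest p, the textbook variants and the 8 smallest interaction p-values. A further few list members are named to show a list's range, and some genes under this rule are not reported here. Members and lists were chosen with earlier results of these data known. Alternatives were other scalings, a filter on low scores, all 36 libraries, no trend, a replicate block, and leaving out glands. Leaving out hair-rich or brown-fat-rich glands and a muscle covariate, and all alternatives but scaling for gene lists, were chosen after seeing the data.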

Additional observations from a re-analysis of the deposited data

Results flagged for a closer look

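In 70 sets of 9 glands of a strain, for the 28 genes with the largest differences and 7 list means, 9 held a gland whose gap to its nearest neighbour took up more of the whole range than chance gives in about 1 of 20 sets. The 9 glands come from 3 weeks, so a set is not a single group. Gland 3 of C57BL/6 week 6 was the highest of its strain for Hal (-0.018) and Rarres1 (-0.094), and is one of the hair-rich glands. Gland 3 of C57BL/6 week 1 was the lowest for Cux2 (-1.03), for Ighv1-81 (0.081) and for the mean of the skeletal muscle list (-0.59). Gland 2 of C57BL/6 week 1 was the highest of its strain for the mean of the brown and beige adipocyte list (-0.041). In BALB/c, gland 2 of week 6 was the highest for Slc5a7 (-0.43) and for the mean of the keratinocyte and hair list (0.68), and gland 3 of week 1 was the lowest for Rarres1 (0.00058). No explanation of these glands was tested. By the rule that chose them, the strains did not overlap for any of these 5 genes.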

How the results depend on the processing

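The 28 largest differences kept their direction and call in all 27 alternatives, and of 107 named genes called over all weeks 80 did in every alternative that tested them, while 27 lost the call in at least 1 and none changed sign. The 28 were chosen for their call, size and lack of overlap in the same glands, so their stability is no independent check. Genes called over all weeks numbered 1475 (of 12801 tested) with a filter on low scores and 1707 without hair-rich glands. At week 1 there were 360 with the filter, 437 without hair-rich glands and 219 in a fit of the week's 6 glands alone, at week 3 396 with the filter, 423 without hair-rich glands and 1584 with the muscle covariate, and at week 6 429 with the filter and 329 without hair-rich glands. Genes called at every week numbered 184 with the filter, all among the 389, 155 in fits of each week alone and 197 without hair-rich glands, of which 194 were among the 389. With all 36 libraries 7 genes were called for interaction, without brown-fat-rich glands 5 and with the muscle covariate 6.

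Leaving out 1 gland gave 460 to 835 genes at week 1, 514 to 1067 at week 3, 556 to 1185 at week 6, 300 to 385 at every week, 2230 to 3093 over all weeks and 0 to 13 for interaction, with 13 without gland 3 of C57BL/6 week 1, 3 without gland 2 of BALB/c week 1, and 1 each without gland 1 of C57BL/6 week 1 and gland 2 of C57BL/6 week 6. The week 1 count was 465 without gland 1 of BALB/c and 460 without gland 1 of C57BL/6 of that week. The week 3 count was 552 and 519 without gland 1 or 2 of BALB/c and 514 and 532 without gland 2 or 3 of C57BL/6, and the week 6 count was 588 without gland 2 of BALB/c and 556 and 572 without gland 2 or 3 of C57BL/6. The replicate block gave 2555 genes over all weeks, 574, 655 and 909 at weeks 1, 3 and 6 and 308 at every week, of which 280 were among the 389. With this block Foxa1, Cldn4, Adgre1, Sbsn and Igkv12-89 lost the call and Mfge8 and Col15a1 gained it, no other named gene changed its call, and the pairing is a hint from the data at week 1 only.

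B cell and plasma cell genes called numbered 4 to 13 over single glands left out, 4 without hair-rich, 6 without brown-fat-rich glands and 6 with the filter. T cell genes numbered 3 to 15, 2 and 4, and 0 by limma with the filter (8 tested, 3 at an unadjusted p below 0.05) and 3 with all 36 libraries. In the NK receptor list 1 gene was called with the filter, of 2 tested. Against 12 B cell and plasma cell genes with all glands, 4 were called without gland 1 of C57BL/6 week 1 or gland 3 of C57BL/6 week 6, 5 without gland 2 or 3 of BALB/c week 6, gland 3 of C57BL/6 week 1 or gland 2 of C57BL/6 week 6, 6 without gland 2 of BALB/c week 3, and 7 without gland 2 of C57BL/6 week 3 or gland 1 of C57BL/6 week 6. Against 7 T cell genes, 3 were called without gland 2 or 3 of BALB/c week 6 or gland 1 or 3 of C57BL/6 week 1, 4 without gland 2 of BALB/c week 1, gland 1 of BALB/c week 6, gland 3 of C57BL/6 week 3 or any 1 gland of C57BL/6 week 6, and 15 without gland 2 of C57BL/6 week 1. Under cyclic loess scaling 2 myoepithelial genes were called instead of 1. Scaling moved the share of called genes higher in BALB/c from 48.0% to 43.9% at most. Depth cannot be read from scores, so low genes carry an unknown counting error, and the causes of these changes were not tested.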

Other observations

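Further genes called at every week were picked after their values were seen. Apobec3, which encodes a restriction factor of retroviruses, was 0.66 to 0.92 in BALB/c and 1.23 to 1.67 in C57BL/6 glands (-0.60 ± 0.05). Rab6b, a small GTPase gene, was -0.57 to -0.10 and 0.63 to 0.79 (-1.12 ± 0.05). Mup11, of the major urinary protein family of near copies on chromosome 4, was -0.44 to 0.59 and 0.64 to 1.36, with means of 0.072 and 1.07. 2210407C18Rik on chromosome 11 was 0.22 in the median of BALB/c and -1.56 in that of C57BL/6 glands (1.90 ± 0.07). The strains did not overlap for any of these 4 genes.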
